A study of Homo sapiens with 2 samples.

Results

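The genes that encode Wnt ligands, their receptors, their secreted antagonists and the core intracellular relay were examined on 2 expression arrays of cultures labelled LN229, an established human glioblastoma cell line. That both cultures are LN229 rests on the labels alone and could not be tested with these arrays, on which epithelial markers differ widely, as given below. Members were chosen by gene symbol alone: all WNT, FZD, SFRP and DKK symbols, and the named genes LRP5, LRP6, ROR1, ROR2, RYK, WIF1, WLS, TCF7L1, LEF1, CTNNB1, APC, AXIN1, GSK3B, DVL1, DVL2 and DVL3. This gave 53 genes of 19775 named on the arrays, measured by 112 probe sets. Of the 53, 51 code for proteins and the other 2, FZD4-DT and FZD10-AS1, are non-coding neighbours of Frizzled genes that match the symbol rule. PORCN and TCF7, also on the list of symbols, were not analysed here, and 6 probe sets that pair a member with a second gene were left out. One culture carried pSUPER.neo with a miR-127-3p insert and the other carried the empty pSUPER.neo plasmid. Both were grown in DMEM with serum, and total RNA was extracted with Trizol. Whether the lines are clones or pools is not given in the sources used here. Each group had 1 array, so the differences below are sizes without a test between groups.

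Wnt proteins are lipid-modified growth factors that the carrier WLS escorts to the cell surface. In the canonical branch they join a Frizzled receptor to LRP5 or LRP6, which halts the breakdown of beta-catenin, the product of CTNNB1, and lets it act with TCF and LEF factors on target genes. SFRP proteins and WIF1 bind the ligands, whereas DKK1 binds LRP5 and LRP6. WNT5A is best known for a second branch that uses ROR and RYK receptors, does not need beta-catenin and is linked to migration in glioma cells.

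The overexpressed microRNA is shown first because it is the only labelled difference between the cultures. Its mature sequence from RefSeq lies at chr14:100883035-100883056 on the plus strand of GRCh38.p14, and the capitals mark the seed, bases 2 to 8, which pairs with target transcripts.
hsa-miR-127-3p: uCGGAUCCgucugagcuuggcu
The arrays gave no value for the mature microRNA that was used here, so its level in the cultures was not checked.

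The deposited value of a probe set is its signal intensity in arbitrary units, and the median signal was 83.3 on the miR-127-3p array, against 93.9 on the control array. Comparisons below use log2(signal + 1), and the log2 ratio is miR-127-3p minus control after centring on the median gene above the filter. A gene was above the filter if the mean log2 value of its brightest probe set exceeded the median over the array, control probe sets left out, a signal of about 83.0. The number of arrays limits the precision. Ratios of different probe sets of the same gene had an SD of 0.41 per probe set over 5974 pairs, and of 0.31 over the 16 pairs among the Wnt genes. Each pair joins the 2 brightest probe sets of a gene above the filter, on the same 2 arrays. This SD therefore holds nothing of the variation between cultures or between arrays. Markers of other cell types moved along the same pair of arrays. Of 12 epithelial markers, 2 were brighter on the miR-127-3p array, 10 were brighter on the control array, and the 12 signals summed to 7756 with miR-127-3p against 86641 in the control. KRT19 at 5.64 and the epithelial cadherin CDH1 at 7.05 were far below the array median with miR-127-3p, against 12674 and 775 on the control array. The part of this difference in the Wnt results was not tested. If the cultures differ in line or cell makeup, that difference and the microRNA cannot be told apart in any ratio below. Of 10 glial and glioma markers 8 were above the filter, and 3 of these were past 2-fold. The glutamate transporter gene SLC1A3 had a signal of 2689 with miR-127-3p against 73.9 in the control, higher by at least 28.1-fold. The stem cell factor SOX2 and the intermediate filament gene NES were lower, with log2 ratios of -1.24 and -1.03. The other 5, VIM, S100B, OLIG2, FABP7 and PTPRZ1, stayed within 2-fold, while the astrocyte markers GFAP and AQP4 were below the array median on both arrays. In such bulk samples, fewer cells of a type and less RNA per cell cannot be told apart.

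Of the 53 Wnt genes, 30 were above the filter. Of these 30, 2 or 6.67% were past 2-fold upward with miR-127-3p, against 5.06% of all 11985 genes above the filter. At least 2-fold lower were 5 of 30, or 16.7%, against 8.67% of all genes. The higher genes were DKK1 and WNT5A, and the lower genes were LRP5, LRP6, SFRP1, TCF7L1 and WNT10A. LRP5 and WNT10A were under the miR-127-3p array median and passed the filter through their control signals. Their entry and their direction are therefore not independent. Of 26 Wnt genes also above both array medians, 3 or 11.5% were at least 2-fold lower, against 6.22% of all such genes. The share of higher genes was near the background. The median log2 ratio of the 30 genes was -0.19, against 0.00 for all genes, and 21 had a ratio below 0. Because a filter on the mean can miss a gene that is bright on only 1 array, all 53 genes were also counted with dim signals raised to each array's median. In that count, chosen after seeing the data, 2 genes or 3.77% were at least 2-fold higher, against 2.91% of all 19775 genes, and 8 genes or 15.1% were at least 2-fold lower, against 5.56%. The 3 genes added were FZD10, SFRP5 and WNT11. When probe sets whose identifier carries a cross-match suffix were dropped, 2 of 21 Wnt genes or 9.52% were lower, close to 8.83% of all genes.

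**Figure D1:**
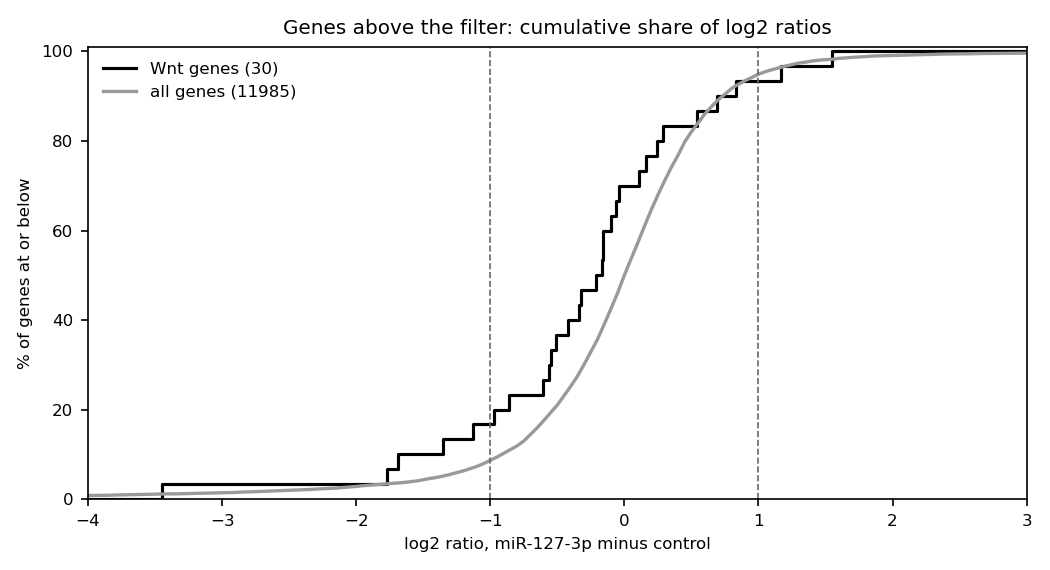
Cumulative share of genes (%, y axis) at or below each log2 ratio (x axis, miR-127-3p minus control) for the 30 Wnt genes above the filter (black steps) and all 11985 genes above it (grey line), with dashed lines at 2-fold. The black line rises above the grey one at -3.45, the ratio of LRP5. The lines nearly meet just left of -1.77, that of SFRP1, and from there the black line runs above to about 0.5. Further right the lines lie close together, and 6.67% and 5.06% of genes lie past 2-fold upward.

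Among 17 ligand genes, 5 were above the filter, and WNT5A was the only ligand at least 2-fold higher. Its probe sets gave signals of 6115 and 4079 on the miR-127-3p array, against 2688 and 2204 on the control array. Both were brighter with miR-127-3p, with log2 ratios of 1.17 and 0.88, so that only the brighter probe set passed 2-fold. WNT10A, a ligand of skin and tooth development, gave 72.7 with miR-127-3p against 185 in control cells. The first of these lies under the array median, so WNT10A was at least 2.22-fold lower, and its other probe set was dim on both arrays with the opposite order. WNT11, a ligand of the beta-catenin-independent branch, was below the filter with 6.22 on the miR-127-3p array, against 207 on the control array, and was at least 2.49-fold lower. WNT5B, the close relative of WNT5A, did not share its ratio: 197 with miR-127-3p against 219 in control cells is a log2 ratio of -0.16. WNT6 had probe sets on both sides of 0, at -0.42 and 0.30. WNT9A gave 97.5 on the miR-127-3p array, against 81.9 on the control array, and with the second value under its array median it was at least 1.03-fold higher. WNT16 fell just short of the filter, with a mean log2 value of 6.37 against a limit of 6.39, and gave 111 with miR-127-3p against 59.7 in control cells, at least 1.17-fold higher. The other probe sets of WNT9A and WNT16 were dim on both arrays with the opposite order, at 3.69 against 7.26 and 2.11 against 10.1.

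WLS, the carrier of Wnt proteins, pointed the same way as WNT5A. Its probe sets gave 1868, 1826 and 1076 on the miR-127-3p array, against 1039, 847 and 459 on the control array. All 3 were brighter with miR-127-3p, at log2 ratios of 0.83, 1.10 and 1.22. The brightest of them stands for the gene in the counts and lies under 2-fold, whereas the mean of all 3 gives 1.05.

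**Figure D2:**
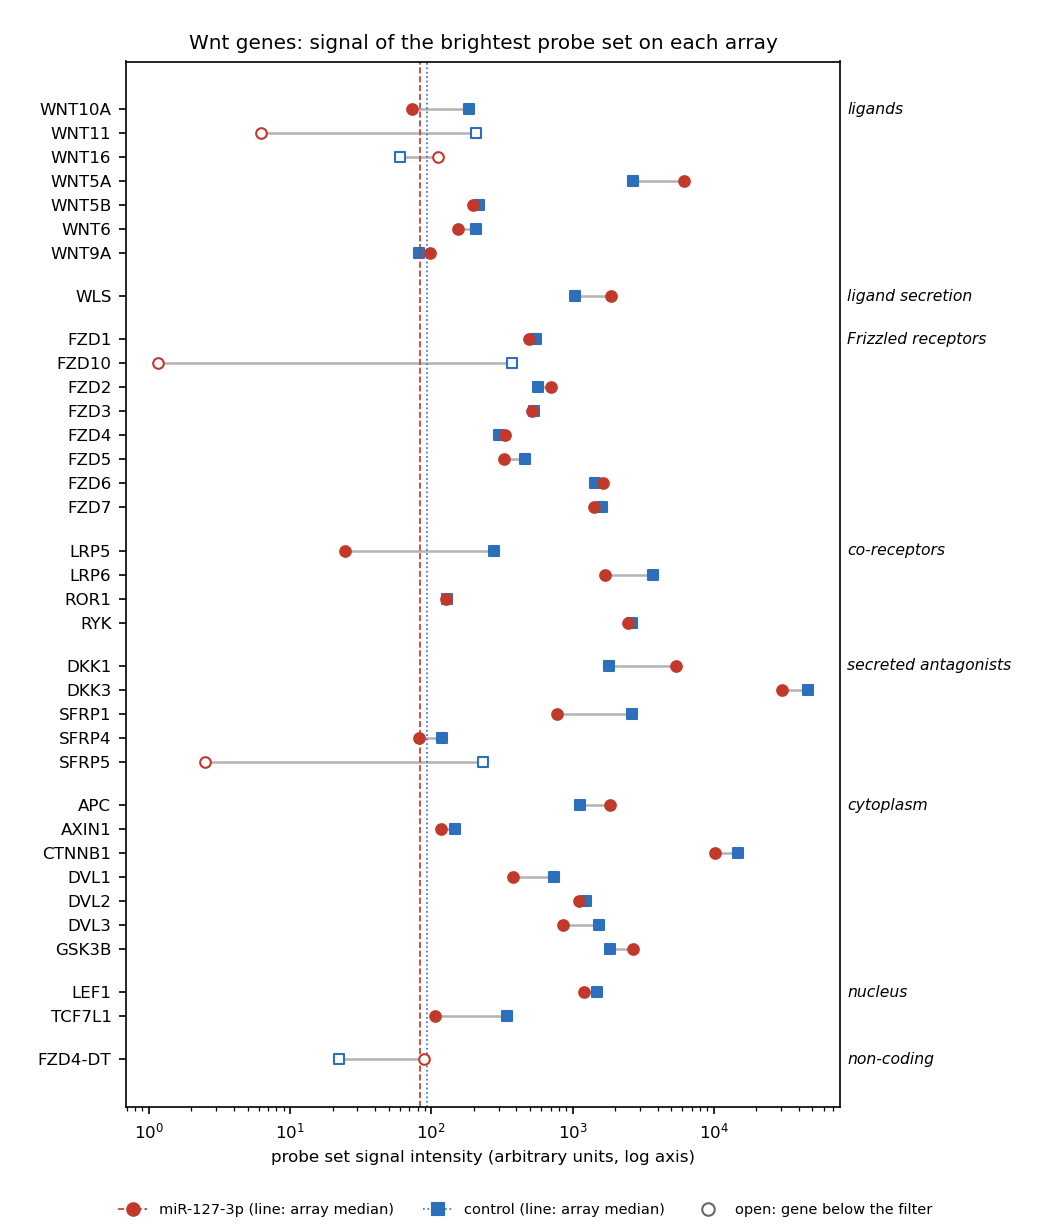
Signal of the brightest probe set (x axis, arbitrary units, log axis) of 35 Wnt genes on the miR-127-3p array (red circles) and the control array (blue squares), by role, with open symbols for genes below the filter and a line at each array's median. DKK1, WNT5A and WLS have the red circle to the right, and LRP5, LRP6, SFRP1, TCF7L1, FZD10, SFRP5 and WNT11 have it to the left.

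Frizzled genes, which encode the receptors that bind Wnt proteins, differed little where they were well measured. All 7 above the filter stayed within 2-fold, as did 10339 of all 11985 genes above it, so that count alone does not set them apart. Their log2 ratios lay between -0.51 and 0.29, with a median of -0.06. FZD6 gave 1639 with miR-127-3p and 1454 in control cells, and FZD2 gave 703 and 572. FZD7 had 2 probe sets that lay close together, with 1415 and 1355 on the miR-127-3p array against 1619 and 1684 on the control array. FZD5 had the lowest ratio of these 7, with 326 against 461. FZD1, FZD3 and FZD4 were at -0.16, -0.06 and 0.11. The exception was FZD10, which was below the filter: its probe set gave 1.17 on the miR-127-3p array, against 371 on the control array. Set against the array median, FZD10 was at least 4.45-fold lower, and this rests on 1 probe set.

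Both canonical co-receptors were lower with miR-127-3p, while RYK and ROR1 stayed near a ratio of 0. LRP6 gave 1702, 339 and 232 at its 3 probe sets on the miR-127-3p array, against 3706, 536 and 554 on the control array. Every LRP6 probe set was dimmer with miR-127-3p, at log2 ratios of -1.13, -0.67 and -1.26, and the brightest was 2.19-fold lower. LRP5 gave 24.5 against 276, and with the first value under the array median this means at least 3.31-fold lower. Its mean log2 value of 6.39 only just reached the filter, and its other probe set, at 6.17 against 36.7, was dim on both arrays. RYK, an atypical kinase receptor for Wnt proteins, gave 2477 on the miR-127-3p array, against 2634 on the control array, a ratio of -0.10. ROR1, a receptor for WNT5A, gave 127 and 130, a ratio of -0.04, with its 3 probe sets between -0.49 and 0.03. The lowest of these gave 81.2 against 113, with the first value under the array median. ROR2 was below the array median on both arrays.

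The secreted antagonists differed in both directions. DKK1 had the highest ratio of the 30 Wnt genes above the filter: its signal was 5372 with miR-127-3p against 1818 in control cells, or 2.93-fold higher. DKK1 is measured by a single probe set, so agreement between probe sets could not be assessed. SFRP1, a soluble decoy for Wnt ligands, lay on the other side, with 778, 182 and 125 at its 3 probe sets above the filter on the miR-127-3p array, against 2643, 573 and 518 on the control array. These are log2 ratios of -1.77, -1.66 and -2.06, a spread narrower than the distance of any of them from 0. SFRP5, another decoy, was below the filter with 2.51 against 234, at least 2.80-fold lower. DKK3, a divergent family member that is not a typical LRP6 inhibitor, gave 30555 on the miR-127-3p array, against 46147 on the control array. Its 4 probe sets above the filter ranged from -0.61 to 0.18. SFRP4 was dim, with 82.0 against 120, and its other probe set, dim on both arrays, had the opposite order, at 65.4 against 16.3.

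DKK1 is a known target of beta-catenin and TCF factors, so the 250 bases before its start were searched for the core TCF/LEF motif, CTTTGA or CTTTGT on either strand. The promoters of both genes that were at least 2-fold higher are shown, from RefSeq on GRCh38.p14, with matches in capitals: DKK1 at chr10:52314031-52314280 on the plus strand, and the first of 2 listed WNT5A starts at chr3:55487307-55487556 on the minus strand.
DKK1: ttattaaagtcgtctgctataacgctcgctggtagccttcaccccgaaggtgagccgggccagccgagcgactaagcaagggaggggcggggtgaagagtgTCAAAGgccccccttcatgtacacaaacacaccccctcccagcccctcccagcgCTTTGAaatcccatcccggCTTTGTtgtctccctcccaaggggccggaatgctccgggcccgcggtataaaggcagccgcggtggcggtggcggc
WNT5A: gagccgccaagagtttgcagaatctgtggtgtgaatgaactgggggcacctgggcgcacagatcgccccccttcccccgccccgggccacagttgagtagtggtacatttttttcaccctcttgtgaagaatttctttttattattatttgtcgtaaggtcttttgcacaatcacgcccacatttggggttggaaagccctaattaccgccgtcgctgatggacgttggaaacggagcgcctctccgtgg
The DKK1 window holds 3 matches that do not overlap. The first, at bases 149 to 144 before the start, is CTTTGA read on the opposite strand, and the others are CTTTGA at bases 95 to 90 and CTTTGT at bases 76 to 71. Neither WNT5A window holds a match. Among 35116 promoters, 22.8% held at least 1 match and 0.584% held 3 or more. RefSeq promoters were at hand for 39 of the 53 Wnt genes, and 4 of these had a match, the others being FZD1, ROR2 and WNT8B with 1 each. A match describes the sequence and does not show that a factor binds there.

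The intracellular relay stayed within 2-fold at the brightest probe set of all 7 cytoplasmic genes, from -0.97 to 0.69 with a median of -0.34. Most genes above the filter, 10339 of 11985, also stayed within 2-fold. The 3 Dishevelled genes, whose products carry the signal from Frizzled, were all dimmer with miR-127-3p at their brightest probe set. DVL1 gave 378 against 734, DVL3 gave 850 against 1534, and DVL2 gave 1120 against 1246. The other DVL3 probe set was dim on both arrays with the opposite order, at 77.7 against 17.7. DVL1 sat at the edge of 2-fold, with a log2 ratio of -0.97. CTNNB1 gave 10193 on the miR-127-3p array against 14928 on the control array at its brightest probe set. Its probe sets did not agree, at -0.56, 0.04 and -1.11. Components of the complex that destroys beta-catenin went both ways. GSK3B, its kinase, gave 2682 on the miR-127-3p array, against 1831 on the control array. All 3 of its probe sets above the filter were brighter with miR-127-3p, and the others were under the median of both arrays. APC, a scaffold of the complex, gave 1848 and 1139 at its brightest probe set, a ratio of 0.69, but its other probe sets above the filter lay between -0.07 and 0.21. AXIN1, the limiting scaffold, gave 117 and 147.

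Of the nuclear factors, TCF7L1, which mostly represses Wnt targets, gave 106 with miR-127-3p against 341 in control cells. It was 3.23-fold lower at its only probe set. LEF1, an activator that is itself a Wnt target, was within 2-fold at its brightest probe set, with 1209 against 1498. A second probe set of LEF1 gave 70.5 against 181 and was at least 2.18-fold lower, since the first value is under its array median. The last probe set was under the median of both arrays, at 1.99 against 87.2.

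**Figure D3:**
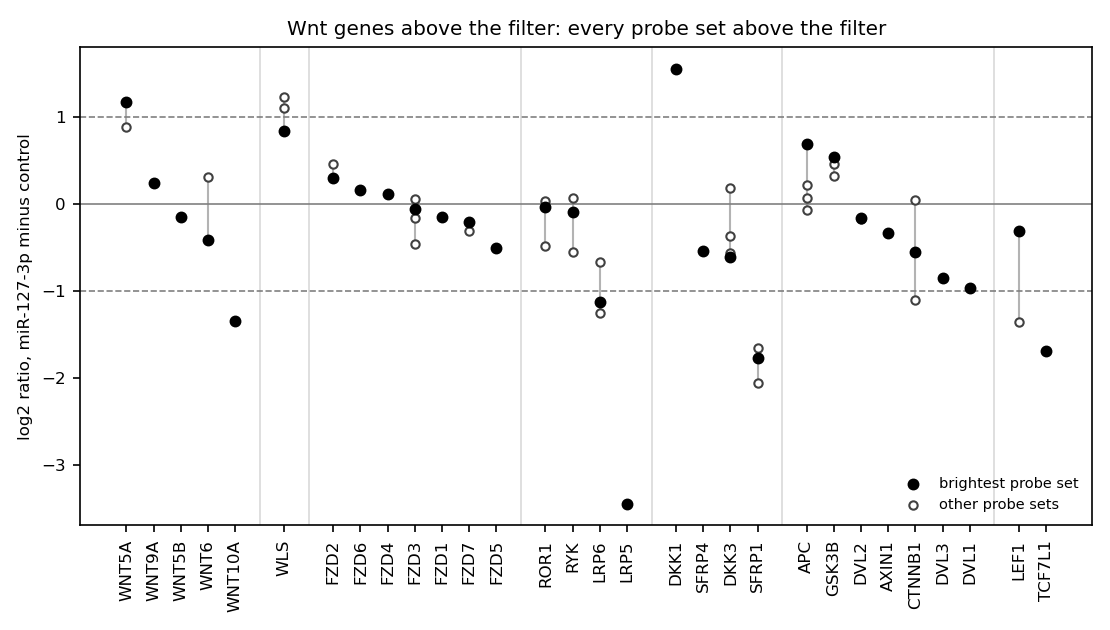
Log2 ratio (y axis, miR-127-3p minus control) of each probe set above the filter for the 30 Wnt genes above it, grouped by role, with the brightest probe set filled, the others open and dashed lines at 2-fold. LRP5, WNT10A, SFRP4, WNT9A and the lowest points of LEF1 and ROR1 have 1 signal under the array median, so their distance from 0 is not exact. SFRP1, LRP6 and WLS keep their probe sets on the same side of 0, while CTNNB1, DKK3, APC and WNT6 straddle it.

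Several probe sets passed the filter for 16 Wnt genes, and 9 of these had all of them on the same side of 0. The 7 that did not were CTNNB1, APC, DKK3, FZD3, ROR1, RYK and WNT6. For these the direction depends on the probe set.

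The remaining members were too dim to compare. Of the 23 genes below the filter, 18 were under the median of both arrays at every probe set, with signals from 1.08 to 92.6: WNT1, WNT2, WNT2B, WNT4, WNT7A, WNT7B, WNT8A, WNT8B, WNT9B, WNT10B, FZD9, ROR2, DKK2, DKK4, DKKL1, SFRP2, WIF1 and FZD10-AS1. Of their 27 probe sets 11 were brighter on the miR-127-3p array, against 16 on the control array. FZD4-DT gave 88.5 against 22.2, barely above the median of the miR-127-3p array, so no fold is given. A low signal on such arrays does not show that a transcript is absent.

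Genes that Wnt signalling itself turns on were lower with miR-127-3p at most of those measured. Of 12 feedback and target genes above the filter, none was at least 2-fold higher and 9 were at least 2-fold lower, against 5.06% and 8.67% of all genes above the filter. Among the 9, NKD1, NKD2, NOTUM and ASCL2 were under the miR-127-3p array median and passed the filter through their control signals. With dim signals at the array median, the median log2 ratio of these 12 was -2.90. NOTUM, an enzyme that strips the lipid from Wnt proteins, gave 64.5 with miR-127-3p against 969 in control cells and was at least 11.6-fold lower. SP5, a transcription factor induced by beta-catenin, gave 121 against 887. ZNRF3, a ubiquitin ligase that removes Frizzled and LRP6 from the surface, was 2.32-fold lower, and its partner RNF43 was at -0.94. CCND1 was the only gene of this list with a ratio above 0, at 0.52. DKK1 and LEF1, described above as Wnt targets, were counted among the members and not here. DKK1 was 2.93-fold higher, and LEF1 was at -0.32 at its brightest probe set. This list was chosen with results of these arrays known, so its direction is not independent support. The epithelial markers, with a median of -4.78 over the 6 above the filter when dim signals are set to the array median, differ along the same arrays, and their part was not tested. Of these 6, KRT19, EPCAM and ESRP1 passed the filter through their control signals.

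Extracellular regulators outside the ligand and antagonist families were mostly dim, with 4 of 18 above the filter. With dim signals at the array median, 5 of the 18 or 27.8% were at least 2-fold lower, against 5.56% of all 19775 genes. None was at least 2-fold higher, against 2.91%. This list too was chosen with earlier results of these arrays known. APCDD1, a membrane inhibitor of Wnt signalling, gave 1.31 on the miR-127-3p array against 1212 on the control array and was at least 14.5-fold lower. SULF2, which trims heparan sulfate and so frees Wnt ligands, gave 1.40 against 936 and was at least 11.2-fold lower. APCDD1 and SULF2 were both below the filter, and each is given by the brighter of its 2 probe sets. LGR6, a receptor for R-spondins, was at least 6.75-fold lower, while LGR4, the broadly expressed member of that family, was at -0.31 with 480 against 590. KREMEN1, a partner of DKK1 at LRP6, gave 498 against 1369 at the brightest of its 5 probe sets. It was 2.77-fold lower on the arrays where DKK1 was 2.93-fold higher.

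**Figure D4:**
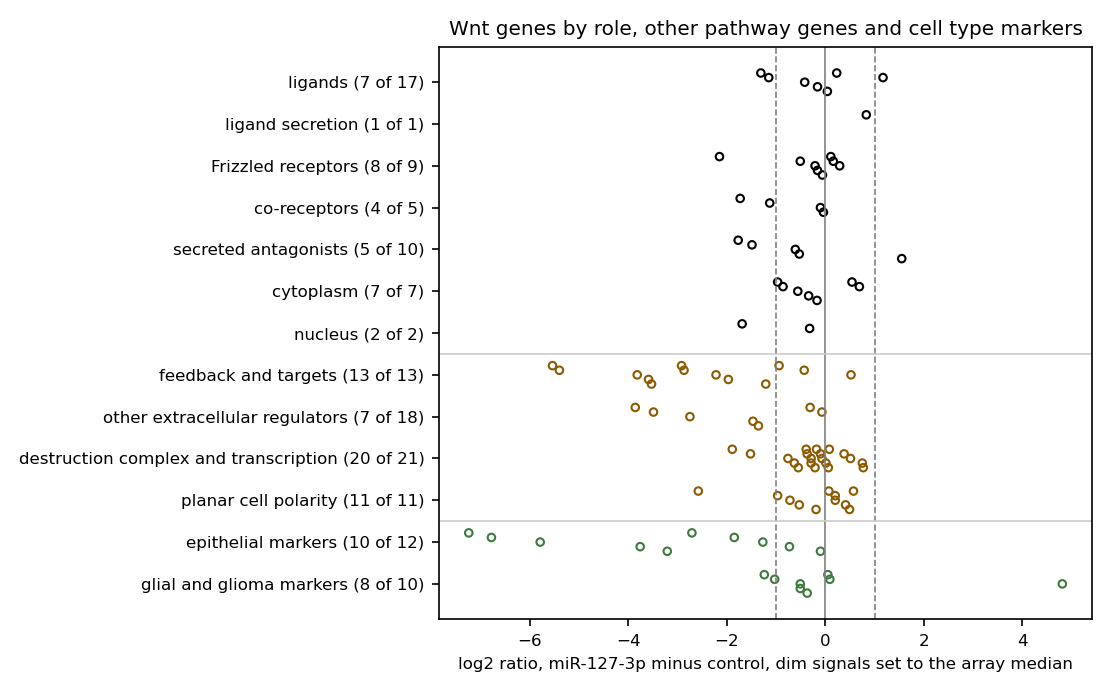
Log2 ratio (x axis, miR-127-3p minus control, dim signals set to the array median) of Wnt genes by role (black), other pathway genes (brown) and cell type markers (green), with the number of genes above the median on at least 1 array in brackets and dashed lines at 2-fold. Feedback and target genes and epithelial markers lie far to the left, while Frizzled genes other than FZD10 gather near 0.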

How the data were processed

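Total RNA of 2 cultures, both LN229 per the labels, was measured on Affymetrix arrays after labelling with a 3′ kit, per the labels' protocols, so signals come mainly from transcript 3′ ends. The deposited values are linear signal intensities of probe sets, and after trimming 2% at each end the mean was 500.1 on each array. For background correction and summarising software, the sources used here give nothing. Other columns of values were absent.

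A platform annotation named the probe sets, and those with several symbols or none were dropped. All 53 member symbols matched RefSeq (GRCh38.p14) by Entrez identifier. Signals became log2(signal + 1), a gene was represented by its brightest probe set, genes below the median mean log2 value were filtered out, and ratios were centred on the median over genes, 0.01. Fold is 2 to the power of the ratio, so the pseudocount shrinks the fold of dim genes. Where 1 array was below its median signal, the fold is a lower limit against that median, which is a chosen floor and not a detection call. Members past 2-fold were counted beside all genes, with no test. Every member above the filter, or above an array median at any probe set, is named with values. For pathway genes and markers outside the members, only the brightest probe set was read, and agreement between probe sets was not assessed.

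The members, gene lists, rules and settings were chosen with earlier results of these data known. Alternatives were 1.5-fold and 3-fold thresholds, no filter, a 75th percentile filter, genes above the median on both arrays, 4 other scalings (as deposited, quantile, loess with span 0.3, 75th percentile), pseudocounts of 16 and 32, the mean of probe sets, dropping probe sets with a cross-match suffix, and a floor at the array median, alone or with no filter. The procedure was tested on simulated data. Lists of endothelial markers (3 genes) and leukocyte markers (2 measured genes) had 1 gene each above the filter, PECAM1 at 0.29 and CD14, lower by at least 1.26-fold. Python 3.11.15, numpy 2.4.6, pandas 2.3.3, statsmodels 0.14.6 and matplotlib 3.10.9 were used.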

Additional observations from a re-analysis of the deposited data

How the results depend on the processing

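The counts of 2 Wnt genes higher and 5 lower held with values as deposited, quantile normalization, the loess trend removed, 75th percentile scaling, both larger pseudocounts and the floor at the array median. At 1.5-fold 4 members or 13.3% were higher and 8 or 26.7% lower, against 14.5% and 18.1% of all genes. At 3-fold 0 were higher and 3 or 10.0% lower, against 1.57% and 3.94%. With no filter 8 of 53 or 15.1% were higher and 14 or 26.4% lower, against 12.8% and 17.2%, many of them dim on both arrays. With no filter and the floor together 8 or 15.1% were lower, against 5.56%. The lower count was 3 of 19 or 15.8%, against 4.95% of all genes, with a filter at the 75th percentile, which leaves out LRP5, TCF7L1 and WNT10A and brings DVL1 to -1.01. It was 3 of 26 or 11.5%, against 6.22%, with genes required to exceed both array medians, which leaves out LRP5 and WNT10A. Without cross-match probe sets 2 of 21 or 9.52% were lower, against 8.83%, which leaves out SFRP1, TCF7L1 and WNT10A. The mean of probe sets gave 3 higher genes or 10.0%, against 4.77% of all genes, and 5 lower or 16.7%, against 8.18%. The median ratio of the members ranged from -0.20 to -0.05. Of 376 single values under alternatives 13 moved by more than 0.41, the SD between probe sets, and none of the genes past 2-fold changed sign. A change of sign was hardly possible, because all settings reuse the same 2 arrays and most shift the ratios little. A gene that a setting leaves out has no value there. LRP5 ranged from -3.46 to -1.73, and WNT5A fell below 2-fold, to 0.89, without suffixed probe sets. DKK3 went to 0.20 and APC to -0.06 there. No paired analysis was possible because each group has 1 array. The arrays, 1 per group, limit every value.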

Other observations

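Genes of planar cell polarity, the branch of Frizzled signalling that orients cells in a sheet, mostly stayed within 2-fold, as did most genes above the filter. Of 11 measured genes, 1 or 9.09% was past 2-fold downward, near the 8.67% of all genes above the filter. None was past 2-fold upward, against 5.06% of all genes, and the median log2 ratio was 0.07. The lower gene was VANGL2, a core membrane component, which gave 68.8 with miR-127-3p against 499 in control cells and was at least 5.97-fold lower. It passed the filter through its control signal. Its relative VANGL1 gave 1457 on the miR-127-3p array, against 1026 on the control array, a ratio of 0.49. CELSR1, an atypical cadherin of the same complex, was at -0.97, while CELSR3 was at 0.41 and PTK7, a pseudokinase receptor, at -0.72.

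Of 20 further genes of beta-catenin breakdown and transcription above the filter, 18 stayed within 2-fold, and the median of the 20 was -0.19. At least 2-fold lower were 2 or 10.0%, near the 8.67% of all genes, and none was higher, against 5.06%. The 2 lower genes were TCF7L2 and TLE3. TCF7L2, the main TCF factor of the gut, gave 2762 with miR-127-3p against 7842 in control cells, and was 2.86-fold lower. This is the brightest of its 7 probe sets, and the others were not compared. TLE3, a corepressor that binds TCF factors, gave 238 against 878 at the brightest of its 4 probe sets. Its relatives TLE1 and TLE4 had ratios of 0.75 and 0.77, so members of the TLE family lay on both sides of 0. CSNK1A1, the priming kinase of beta-catenin, was at 0.38, and CSNK1D, another casein kinase gene, was at 0.51.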
